A study of Mus musculus with 40 samples.

Results

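The adipocyte genes examined here were Adipoq, Plin1, Plin4, Fabp4, Lep, Retn, Cfd, Pparg, Cidec and Lipe, 10 of the 54087 entries of the count table, found by their symbols. They were chosen by an adipocyte score computed from these same counts, which had been higher in tumors treated with anti-GARP:TGF-β1 FcD plus anti-PD-1. The counts of that group, and those of the isotype control they were set against, were therefore used in the choice. Every comparison that includes the FcD combination is given as a description, and counts of genes past a threshold in those comparisons support nothing here. The other comparisons with isotype control share its values with the choice, so nothing is read from the direction of their estimates and their p-values are not independent of it. All 10 genes passed the filter on low counts, as did 14760 genes in all.

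RNA was sequenced from CT26 tumors, a colon carcinoma line grown under the skin of BALB/c mice, in 8 groups of 5 mice. Each mouse received 1000000 tumor cells, intraperitoneal mAbs on days 6, 9 and 12, and gave up its tumor on day 13. The groups received an isotype control (motavizumab, mIgG2a), anti-PD-1 in an Fc-silent format, anti-TGF-β (clone 1D11), anti-GARP:TGF-β1 (clone 58A2) as a WT or an Fc-dead (FcD) mIgG2a, or anti-PD-1 combined with each of the last 3 mAbs. All mice carried the same tumor line, and the libraries came from fragments of whole tumors, so tumor, immune and stromal cells were read together.

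White adipocytes store triglyceride in a large lipid droplet and release hormones and fatty acids, and they fill the layer under the skin. Their differentiation is driven by the nuclear receptor PPARγ together with C/EBP transcription factors. The droplet is coated by perilipins, its lipid is released by a cascade of lipases, and the hormones adiponectin, leptin and resistin together with the complement protease adipsin are secreted. Transcripts of this set can also be made outside fat, since Fabp4 is known in capillary endothelium and macrophages, and Pparg in macrophages.

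Promoter windows from 250 bases before to 50 bases after the transcription start were read from RefSeq (GRCm38.p6) for 9 of the 10 genes, in 13 windows. Fabp4 had no window. Those of Adipoq, the gene that stands for the set below, of Lep and of 2 of the 3 starts of Pparg, the second of them inside the gene, are shown, since Adipoq and Lep varied together across tumors and Pparg less so. Capitals mark 4 motifs searched on both strands: AGGTCA (the repeat unit of nuclear receptor sites), TTGCGCAA (a C/EBP palindrome), CCAAT and TATAAA.
Adipoq, chr16:23146286-23146585, plus strand: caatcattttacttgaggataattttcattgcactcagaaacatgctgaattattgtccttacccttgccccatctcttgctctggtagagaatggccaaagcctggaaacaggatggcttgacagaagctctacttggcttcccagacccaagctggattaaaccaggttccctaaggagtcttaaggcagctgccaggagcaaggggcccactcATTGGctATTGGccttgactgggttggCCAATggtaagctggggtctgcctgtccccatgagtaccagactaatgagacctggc
Lep, chr6:29059971-29060270, plus strand: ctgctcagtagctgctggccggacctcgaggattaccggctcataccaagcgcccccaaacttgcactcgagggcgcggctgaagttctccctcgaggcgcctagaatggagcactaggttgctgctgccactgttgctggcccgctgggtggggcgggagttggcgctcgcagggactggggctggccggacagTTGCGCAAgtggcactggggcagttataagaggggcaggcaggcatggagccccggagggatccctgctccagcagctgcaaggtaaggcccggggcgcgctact
Pparg, chr6:115360894-115361193, plus strand: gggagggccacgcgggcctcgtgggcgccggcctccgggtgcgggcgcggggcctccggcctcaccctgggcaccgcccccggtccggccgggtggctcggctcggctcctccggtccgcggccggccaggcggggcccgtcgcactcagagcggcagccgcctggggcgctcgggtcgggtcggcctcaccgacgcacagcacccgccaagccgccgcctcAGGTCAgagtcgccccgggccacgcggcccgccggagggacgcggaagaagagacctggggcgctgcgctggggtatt
Pparg, chr6:115421816-115422115, plus strand: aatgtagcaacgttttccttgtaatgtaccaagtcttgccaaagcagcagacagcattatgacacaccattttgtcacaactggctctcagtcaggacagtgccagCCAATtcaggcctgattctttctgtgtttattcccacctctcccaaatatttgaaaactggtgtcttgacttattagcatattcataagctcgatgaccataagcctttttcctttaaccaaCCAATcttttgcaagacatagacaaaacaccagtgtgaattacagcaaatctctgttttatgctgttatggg

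Adipoq held CCAAT 3 times in this window, and Lep held the C/EBP palindrome, which 0.183% of all 32851 promoters of this length contained. CCAAT occurred in 4 of the 13 windows of these genes and in 37.4% of all promoters. AGGTCA was found in 2 of the 13 windows, both at Pparg, and in 16.3% of all promoters, and TATAAA in 1 window and 13.6%. The palindrome reads the same on both strands, so its matches on the plus and minus strands are the same site. No different motifs overlapped in the windows shown. No match says only that these letters were not in the window.

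Total counts per tumor ran from 11931730 to 20680548 (median 14030511), and the 10 genes together held between 0.00429% and 0.134% of them (median 0.0111%). The library numbers in the titles fell into 2 ranges that also differed in transcripts of the sex chromosomes. In libraries 41 to 60, Xist, the RNA of X inactivation, reached at most 0.428 CPM (counts per 1000000 counts) and the Y-linked Ddx3y read 6.86 to 33.4 CPM. In libraries 61 to 80, Xist read 62.7 to 791 CPM and Ddx3y was at 0 in all 20. Each group held 2 or 3 libraries of each range. Markers of leukocytes, macrophages and endothelium were present in all 40 tumors (Ptprc at 59.9 CPM or more, Csf1r at 88.3 or more, Pecam1 at 34.7 or more).

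Adipoq encodes the hormone adiponectin and lies at chr16:23146536-23158028 on the plus strand (GRCm38). It read from 0.0786 to 83.5 CPM across the 40 tumors, with a median of 4.002 CPM. In the isotype control group its values were 9.52, 4.56, 1.18, 0.0786 and 0.346 CPM. With anti-PD-1 they were 40.4, 0.276, 1.71, 1.84 and 1.01 CPM. A single tumor, library 47, thus lay far above the other 4, which were within the isotype control range. With anti-TGF-β the values were 6.04, 60.9, 2.05, 2.22 and 3.92 CPM, again with a single high tumor (library 48) and the others inside the isotype control range. Anti-GARP:TGF-β1 WT gave 20.6, 5.33, 2.84, 5.18 and 1.00 CPM, and the FcD form gave 4.08, 5.10, 1.63, 2.23 and 0.863 CPM, all 5 inside the isotype control range.

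Among the combinations, anti-TGF-β plus anti-PD-1 gave 19.0, 5.06, 6.27, 0.906 and 1.01 CPM of Adipoq. The WT combination gave 2.99, 9.71, 9.49, 1.97 and 13.7 CPM. In the FcD combination, the group on which the genes were chosen, the values were 38.2, 5.66, 19.5, 83.5 and 3.85 CPM, so that 2 of its 5 tumors lay within the isotype control range and 3 above it. By their medians the groups ran from isotype control (1.18 CPM) over anti-PD-1 (1.71), FcD (2.23), anti-TGF-β (3.92), anti-TGF-β plus anti-PD-1 (5.06), WT (5.18) and WT plus anti-PD-1 (9.49) to FcD plus anti-PD-1 (19.5). Neighbors in this order overlapped in every case. In this whole-tumor RNA, fewer adipocytes and less of these transcripts per adipocyte cannot be told apart.

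**Figure D1:**
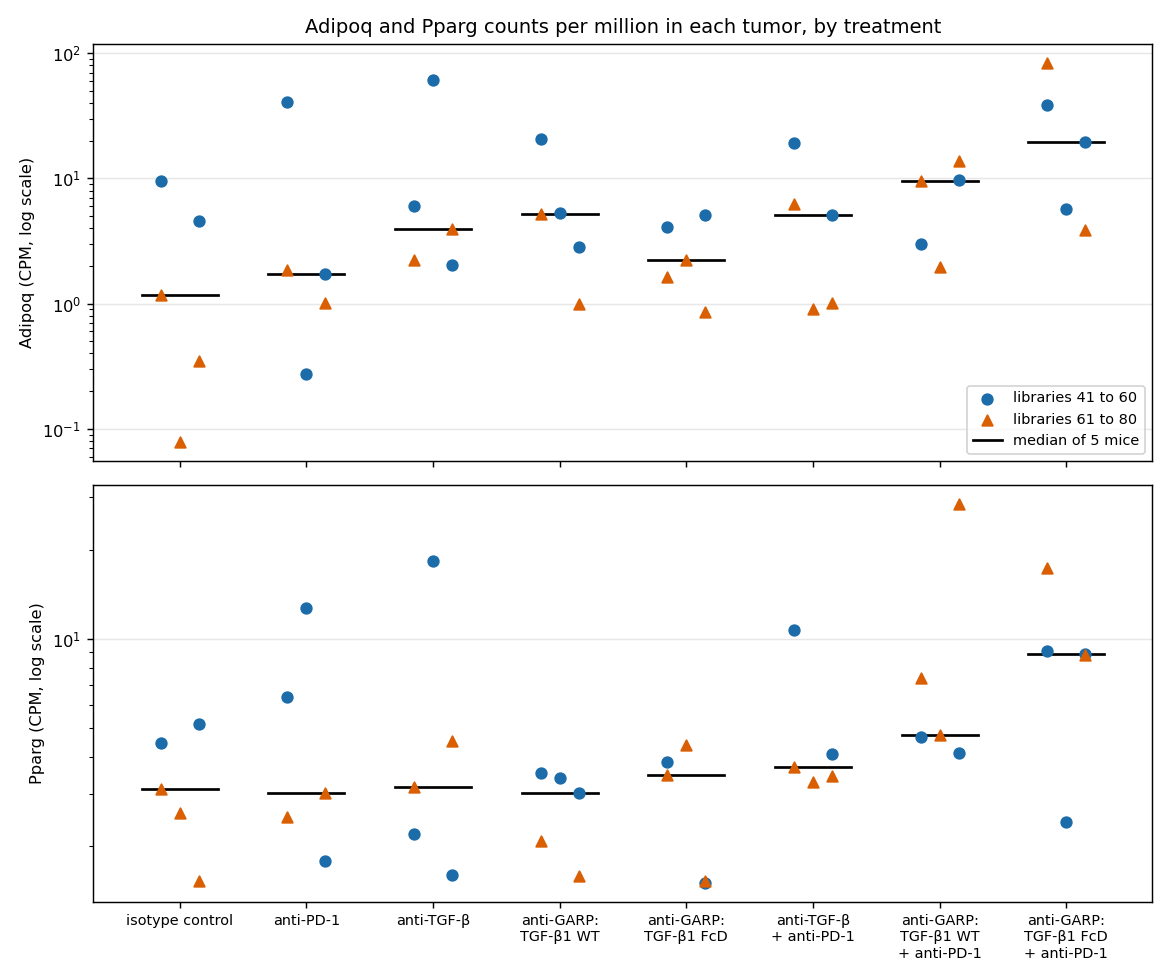
Adipoq (upper panel) and Pparg (lower panel) in CPM on a log axis, for 8 treatment groups of 5 tumors. Each symbol is a tumor, circles mark libraries 41 to 60 and triangles libraries 61 to 80, and the line is the group's median. The Adipoq medians run from 1.18 CPM in the isotype control to 19.5 CPM in the FcD combination, and in the anti-PD-1 and anti-TGF-β groups a single tumor (40.4 and 60.9 CPM) stands above the rest.

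The same few tumors held the highest values of most genes. Library 71, from the FcD combination, was highest for 8 of the 10 genes. Library 48 (anti-TGF-β) was highest for Fabp4, and library 77 (WT combination) for Pparg. Libraries 71 and 48 were among the highest 3 tumors for all 10 genes, library 47 (anti-PD-1) for 7, and library 44 (FcD combination) was among the highest 6 for all 10. The 5 tumors with over 20 CPM of Adipoq thus came from 4 treatment groups, and the 5 tumors with under 1 CPM from isotype control (2), anti-PD-1, FcD and anti-TGF-β plus anti-PD-1. Both limits were set after the values were seen.

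**Figure D2:**
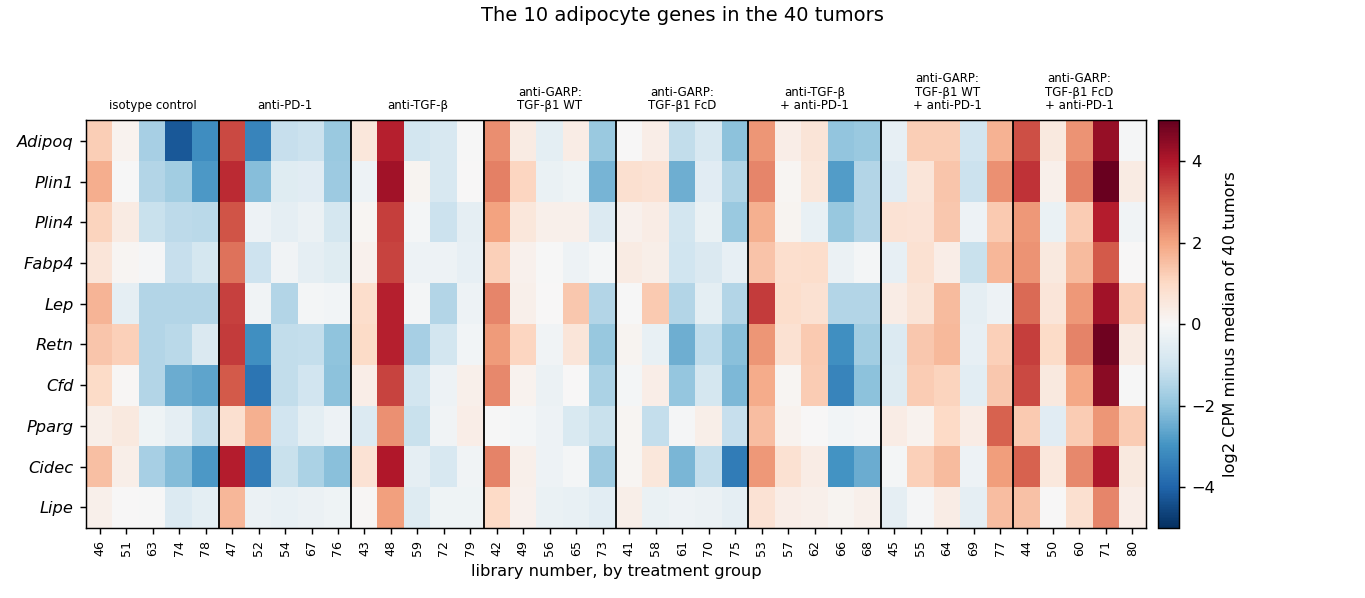
Heat map of the 10 genes (vertical axis) in the 40 tumors (horizontal axis, library numbers ordered by treatment group), colored by log2 CPM minus the gene's median over the 40 tumors. The columns of libraries 71, 48, 47 and 44 are dark red across nearly all genes, and Pparg departs from the others in libraries 52 and 77.

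Among the secreted products, Cfd, which encodes the protease adipsin (chr10:79890853-79892655, plus strand), was the most abundant per length, with a median of 20.6 CPM per kilobase of its principal transcript against 3.10 for Adipoq. Its values reached 433 CPM in library 71, 198 in library 48, 189 in library 44 and 160 in library 47, with a median of 19.0 CPM over the 40 tumors. In the isotype control group they were 37.0, 19.8, 6.80, 3.30 and 2.98 CPM. In the 18 tumors with 5 CPM or more of Adipoq, Cfd was 3.25 to 7.29 times as high in CPM (median 4.01). Cidec was 0.522 to 1.14 times and Plin4 0.566 to 1.33 times as high as Adipoq in the same tumors. Outside these 18 tumors the proportion did not always hold, since library 74 had 3.30 CPM of Cfd with 0.0786 CPM of Adipoq. Retn, the gene of resistin (chr8:3655770-3660110, plus strand), ran up to 33.8 CPM in library 71 with a median of 1.02 CPM, and 2 tumors had no count of it. Lep, the gene of leptin (chr6:29060220-29073877, plus strand), was the rarest, with a median of 0.250 CPM and at most 6.95 CPM (103 counts). In 10 tumors Lep had no count, which allows up to 0.199 to 0.250 CPM in those libraries (3 counts, counting error only), and 9 of these 10 were among libraries 61 to 80.

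The lipid droplet genes showed the same tumors at the top. Plin1, perilipin 1, the droplet coat that guards lipid from lipases (chr7:79720218-79732903, minus strand), read 46.4 CPM in library 71 and 28.0 in library 48, with a median of 1.38 CPM. Cidec, which enlarges droplets (chr6:113424634-113435760, minus strand), read 51.0, 49.0 and 46.0 CPM in libraries 71, 48 and 47, with a median of 2.93 CPM. Plin4, perilipin 4 (chr17:56100591-56109803, minus strand), had a higher floor, at 1.15 to 3.93 CPM in the 5 tumors with under 1 CPM of Adipoq, and reached 72.6 CPM in library 71. Lipe, hormone-sensitive lipase (chr7:25379527-25398710, minus strand), varied least, from 7.70 to 69.1 CPM.

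Fabp4, the fatty acid carrier of adipocytes (chr3:10204088-10208576, minus strand), was the most abundant of the 10 genes per length, with a median of 65.7 CPM per kilobase. Its isotype control values were 89.9, 63.5, 56.5, 26.4 and 32.1 CPM. With anti-PD-1 they were 389, 28.6, 52.3, 43.0 and 38.6 CPM, and with anti-TGF-β 68.3, 618, 49.7, 49.4 and 44.5 CPM. In both groups, then, 4 of 5 tumors lay within the isotype control range. In the 5 tumors with under 1 CPM of Adipoq, Fabp4 still read 26.4 to 48.3 CPM and Lipe 7.70 to 13.7 CPM, while Cidec read at most 0.550 CPM and Plin1 at most 0.398 CPM.

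Pparg, the nuclear receptor that directs adipocyte differentiation (chr6:115360951-115490399, plus strand), followed another order of tumors. Its isotype control values were 4.45, 5.16, 3.12, 2.59 and 1.52 CPM, and those of the WT combination 4.67, 4.11, 7.40, 4.75 and 28.6 CPM. The highest value of all was that of library 77 (28.6 CPM), where Adipoq read 13.7 CPM, and library 52 had 12.7 CPM of Pparg with 0.276 CPM of Adipoq. Library 77 also held the highest sum of the 6 macrophage markers (5944 CPM, range over all tumors 959 to 5944, all 6 highest there), of the 6 endothelial markers (518 CPM) and of the 4 leukocyte markers (906 CPM). Library 52 held the highest sum of the 8 skeletal muscle markers (194 CPM against a median of 4.46) and 2245 CPM of the macrophage markers against a median of 1548. The part of these cells in the Pparg values was not tested.

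How closely the genes varied together was measured in the 30 tumors of the 6 groups that the choice of genes had not used, on log2 CPM with a prior count of 2. Pearson's r with Adipoq was 0.98 for Cfd, 0.97 for Cidec, 0.97 for Retn, 0.95 for Plin1, 0.90 for Plin4, 0.88 for Fabp4, 0.86 for Lep and 0.80 for Lipe. Spearman's rho ran from 0.66 (Lipe) to 0.98 (Cfd) in these 8 genes. The p of each r was 1e-05 in 100000 permutations, the smallest they can give, and 1.12e-05 after Benjamini-Hochberg adjustment over 9 relations. For rho it was 1e-05 for 7 genes and 6e-05 for Lipe (adjusted p = 1.29e-05 and 6.75e-05 in the same permutation tests). For Pparg, r was 0.46 (permutation p = 0.0101, adjusted p = 0.0101) and rho 0.45 (permutation p = 0.0131, adjusted p = 0.0131). Without libraries 48 and 47, the tumors farthest from the median of Adipoq, r was 0.31 for Pparg and 0.66 to 0.97 for the other 8 genes. Within libraries 41 to 60 (15 tumors) r was 0.86 to 0.995 for the other 8 genes and 0.33 for Pparg, and within libraries 61 to 80 (15 tumors) it was 0.63 to 0.95 and 0.72. The genes were chosen with earlier results of these tumors known, and they share each tumor's library.

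**Figure D3:**
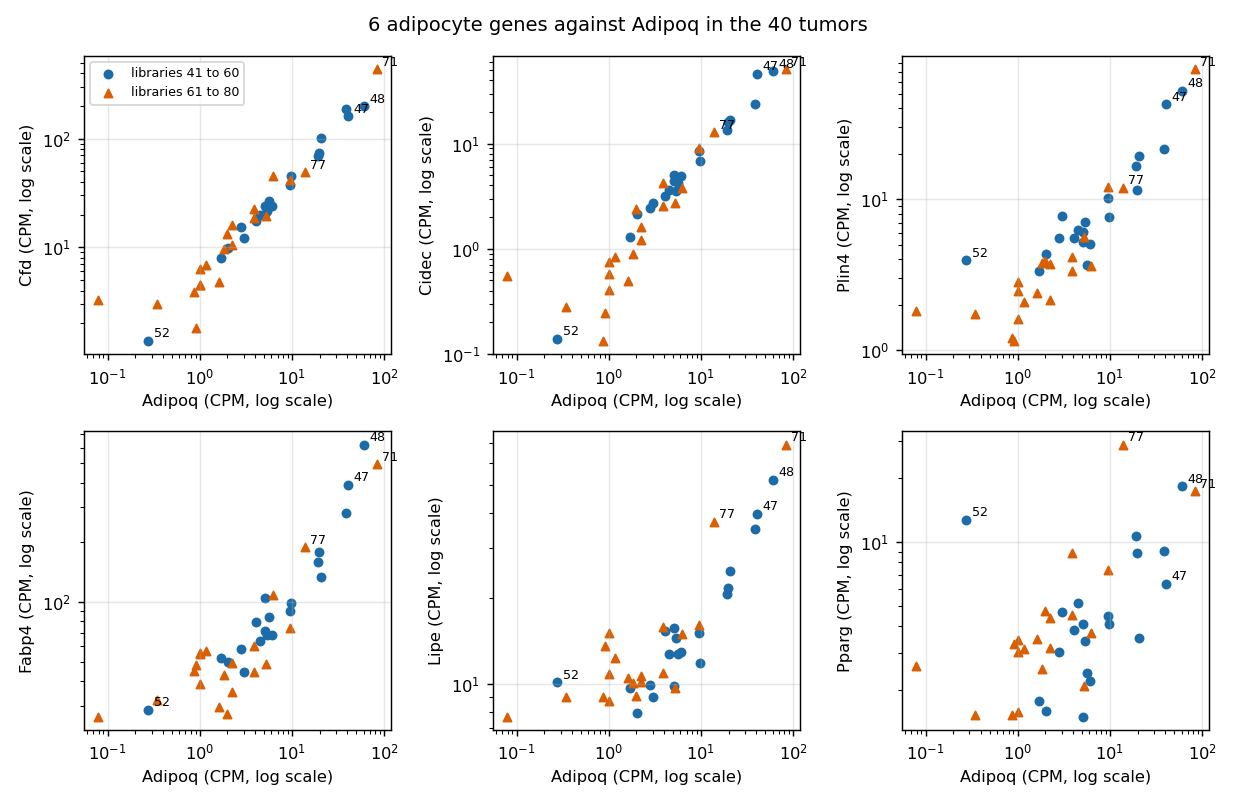
Cfd, Cidec, Plin4, Fabp4, Lipe and Pparg (vertical axes, CPM, log scale) against Adipoq (horizontal axes, CPM, log scale) in the 40 tumors, with circles for libraries 41 to 60, triangles for libraries 61 to 80 and numbers at 5 libraries. Cfd and Cidec lie close to a line, Fabp4 and Lipe do not fall under 26.4 and 7.70 CPM, and Pparg scatters, with libraries 77 and 52 above the rest.

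The question of the treatment comparisons was whether a mAb or a combination moved these genes against the isotype control or against its own components. In the 13 treatment comparisons and interactions that did not involve the FcD combination, edgeR's quasi-likelihood test (Benjamini-Hochberg adjusted p under 0.05) called 0 of the 10 genes. It called 1 of 14760 genes (0.00678%) for anti-TGF-β plus anti-PD-1 against anti-PD-1, and 0 (0%) in each of the other 12. DESeq2's Wald test called 1 of the 10 genes, Pparg, in a single one of the 13 comparisons, the WT combination against WT, where it called 619 genes in all, and 0 in the others, where it called 137 genes for anti-TGF-β plus anti-PD-1 against isotype control, 78 for the same combination against anti-PD-1 and at most 2 elsewhere. At an unadjusted p under 0.05 edgeR's counts of the 10 genes were 1 in each of 4 comparisons and 0 in the other 9. DESeq2's test gave 2 for anti-TGF-β against isotype control, 2 for the anti-TGF-β interaction with anti-PD-1, and the same counts as edgeR elsewhere. Directions against isotype control in the next paragraphs are descriptions, since its values entered the choice and the 10 genes vary together.

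With anti-TGF-β alone, the estimates against isotype control were higher for all 10 genes, with a median log2 fold change of 1.80 against 0.01 over all genes tested. Adipoq was at 2.23 ± 1.14 (SE, adjusted p = 1.00) and Fabp4 at 1.63 ± 0.72 (adjusted p = 1.00, unadjusted p = 0.03 from edgeR), the 1 gene of 10 with an unadjusted p under 0.05, where 2.32% of all genes had one. Without library 48 the estimate was 0.15 for Adipoq and -0.02 for Fabp4, so that a single tumor decided both. That tumor also held the highest sum of the 5 neutrophil markers (270 CPM, where the tumor with the least had 16.4) and the second highest sums of the macrophage (2989 CPM), endothelial (282 CPM against a median of 125), leukocyte (435 CPM against 156) and red cell markers (556 CPM against 79.0), whose part in these values was not tested. For anti-PD-1, no gene of the 10 reached an unadjusted p under 0.05 (0.955% of all genes did), and Adipoq was at 1.502 ± 1.13 (SE, adjusted p = 1.00 from edgeR). Without library 47 that estimate was -1.40.

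Anti-GARP:TGF-β1 WT gave 9 of 10 estimates above isotype control (median log2 fold change 0.88, Adipoq 1.13 ± 1.13), with 0 genes at an unadjusted p under 0.05 against 0.969% of all genes. Without library 42 the estimate of Adipoq was 0.19. The FcD form alone gave 10 of 10 estimates below it (median -0.21, Adipoq -0.20 ± 1.17), from -0.05 ± 0.71 for Fabp4 to -1.42 ± 1.31 for Retn, with 0 genes against 0.474%. For Adipoq that direction turned to 0.12 with the number range as a covariate, 1.51 within libraries 61 to 80 and 0.84 without isotype control library 46. Between the WT and FcD forms, FcD minus WT was -1.33 ± 1.14 for Adipoq, with 0 of the 10 genes at an unadjusted p under 0.05 against 1.40% of all genes. Without library 42 (WT) this difference was -0.39, and without library 58 (FcD) it was -1.64. The SEs of over 1 log2 unit for Adipoq mean that differences of several fold would pass unseen in it.

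In the WT combination all 10 estimates lay above isotype control, with a median log2 fold change of 0.97 against 0.01 over all genes. Adipoq was at 1.26 ± 1.12 (SE, adjusted p = 0.516, and -0.14 within libraries 41 to 60 against 3.92 within libraries 61 to 80) and Cfd at 1.20 ± 1.05 (adjusted p = 0.508, edgeR). Pparg was at 1.55 ± 0.61 (adjusted p = 0.173, edgeR), the 1 gene with an unadjusted p under 0.05, which 20.7% of all genes had. Without library 77 it was at 0.63, and within libraries 41 to 60 at -0.13. In the WT group Pparg read 3.52, 3.39, 3.03, 2.09 and 1.59 CPM, all below the 5 values of the WT combination. Against WT alone Pparg was at 1.85 ± 0.62 (adjusted p = 0.0963, edgeR), again the 1 gene of 10, against 29.5% of all genes, while Adipoq was at 0.13 ± 1.08, and at -0.19 without library 77. DESeq2's test called this difference, and without library 77 it was 0.93. Within libraries 41 to 60 it was 0.40, and within libraries 61 to 80, where library 77 lies, 2.88. Of 36 further lipid genes, 5 were higher and 1 lower than with WT at an unadjusted p under 0.05, where 4361 of all 14760 genes (29.5%) had one and 2443 were higher. Among the higher lipid genes were Cd36, a fatty acid transporter (2.09 ± 0.63), and Plin2, the perilipin found in most cell types (1.38 ± 0.37), each with an adjusted p of 0.0963 (edgeR). The macrophage gene Adgre1 (1.598 ± 0.52), the leukocyte gene Ptprc (1.28 ± 0.42), the endothelial gene Pecam1 (1.15 ± 0.35) and the neutrophil gene Csf3r (1.43 ± 0.48) had the same adjusted p, and none of these passed the threshold in edgeR, while DESeq2's test called all 6. At an unadjusted p under 0.05, 3 of 6 macrophage, 2 of 6 endothelial, 1 of 4 leukocyte and 1 of 4 tested neutrophil markers were higher, and their part in the Pparg difference was not tested.

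Anti-TGF-β plus anti-PD-1 gave 10 of 10 estimates above isotype control (median 0.71, Adipoq 1.02 ± 1.13, adjusted p = 0.62 from edgeR), with 0 genes at an unadjusted p under 0.05 against 20.1% of all genes. Without library 53 the estimate of Adipoq was 0.073. Against anti-PD-1 alone, Adipoq was at -0.25 ± 1.08 in the WT combination and -0.49 ± 1.09 in the anti-TGF-β combination, with 0 genes in both against 17.2% and 17.1% of all genes. Without library 47 (anti-PD-1) these turned to 2.64 and 2.41. Against anti-TGF-β alone, the combination gave 10 of 10 lower estimates (Adipoq -1.21 ± 1.09), with 0 genes against 9.84%. Without library 48 (anti-TGF-β) Adipoq was at 0.86. The interactions with anti-PD-1 were -1.37 ± 1.56 for WT and -2.72 ± 1.57 for anti-TGF-β in Adipoq (adjusted p = 0.661 and 0.959, edgeR). The counts at an unadjusted p under 0.05 were 0 of 10 for WT (8.75% of all genes) and 1 of 10 for anti-TGF-β, Plin4 at -2.58 ± 1.26 (2.30% of all genes). Plin4 read 42.5 CPM in library 47 and 2.45 to 3.93 CPM in the rest of the anti-PD-1 group, and 52.2 CPM in library 48 and 2.16 to 5.06 CPM in the rest of the anti-TGF-β group. Without library 47 both interactions of Adipoq changed sign, to 1.51 and 0.19.

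As a description, the FcD combination minus isotype control gave log2 fold changes of 3.24 ± 1.16 (SE) for Adipoq, 3.40 ± 1.12 for Cfd, 3.37 ± 1.26 for Plin1, 3.17 ± 1.31 for Lep and 3.10 ± 1.18 for Retn. Cidec was at 2.82 ± 1.21, Plin4 at 2.35 ± 0.91, Fabp4 at 2.03 ± 0.73, Pparg at 1.46 ± 0.61 and Lipe at 1.44 ± 0.49. With edgeR no gene passed an adjusted p under 0.05 in that comparison (0% of 14760, with 16.6% at an unadjusted p under 0.05), DESeq2's test called 14 genes and none of these 10, and nothing is read from the direction, which the choice of genes fixed. Without library 71 Adipoq was at 2.39, Plin4 at 1.20 and Lipe at 0.90. Without isotype control library 46 Adipoq was at 4.28, Plin1 at 4.82 and Lep at 5.77. Within libraries 41 to 60 Adipoq was at 1.58, and within libraries 61 to 80, where the isotype control tumors read 1.18, 0.0786 and 0.346 CPM, at 6.30. Against the WT combination Adipoq was at 1.99 ± 1.09, Retn at 2.46 ± 1.13 and Pparg at -0.09 ± 0.58. Against anti-PD-1 alone Adipoq was at 1.74 ± 1.08, and against FcD alone at 3.45 ± 1.18. The comparisons share control tumors.

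Markers of other cell types were summed in the FcD combination and the isotype control, and the ranges of the sums overlapped for each list compared. The 6 macrophage markers summed to 1617 to 2595 CPM in the FcD combination and 1217 to 1790 in the isotype control, the 5 neutrophil markers to 35.7 to 166 CPM against 21.4 to 61.6, and the 5 red cell markers to 44.0 to 301 CPM against 29.9 to 92.0. The 4 leukocyte markers summed to 118 to 333 CPM against 127 to 210, the 6 endothelial markers to 108 to 243 CPM against 96.5 to 139, and the 6 stromal markers to 769 to 831 CPM against 827 to 968. The stromal sum mostly reads Cd34, with a median of 781 CPM over the 40 tumors, where the next gene, Pdgfra, had 31.9 CPM. The 8 muscle markers summed to 2.43 to 9.95 CPM against 3.06 to 6.51. The 8 keratinocyte markers summed to 5.29 to 33.0 CPM against 4.93 to 6.99, with Lor, a defining marker, at 0 in all 40 tumors. Library 71 had the highest keratinocyte and mammary epithelial sums of all tumors (33.0 and 28.3 CPM), the latter with the milk protein genes Csn2 and Wap at no more than 2 counts in any tumor, and with Lalba at up to 63 counts (library 71) and Glycam1 at up to 381 counts (library 68). Their part in the adipocyte values was not tested.

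The comparison of the library number ranges was not the contrast that chose the genes, but its 40 tumors include the 10 whose values did, so its values over all tumors are given as a description. In a model with treatment group and number range, all 10 genes had lower estimates in libraries 61 to 80, with a median log2 fold change of -1.42 against -0.01 over all genes. None of the 10 passed an adjusted p under 0.05 with edgeR, where 248 of 14760 genes (1.68%) did, while DESeq2's test called 5 of them (Adipoq, Cidec, Lep, Plin1 and Plin4) and 533 genes. At an unadjusted p under 0.05, 8 of the 10 were lower, all but Pparg and Lipe, where 7.03% of all genes were. Cidec was at -1.94 ± 0.61 (SE, adjusted p = 0.109), Adipoq at -1.58 ± 0.57 (adjusted p = 0.19) and Fabp4 at -0.83 ± 0.36 (adjusted p = 0.299, edgeR). Pparg was at -0.30 ± 0.33 and Lipe at -0.27 ± 0.25. Without library 71, the tumor of the higher range with the most Adipoq, edgeR called 7 of the 10 (the 5 above, Cfd and Retn) and 298 genes in all, and Adipoq was at -2.12. That fit still holds 9 of the 10 tumors used in the choice. Leaving out a tumor of the lower range moved the estimates the other way, with 0 of the 10 called: without library 47 (anti-PD-1) Adipoq was at -1.20 and Cidec at -1.52, and without library 48 (anti-TGF-β) Plin1 was at -1.34 and Fabp4 at -0.60. In the 30 tumors of the 6 groups outside the choice, a fit chosen after the data were seen, all 10 estimates were again lower in libraries 61 to 80 (median -1.77 against -0.01 over all genes). Adipoq was at -1.86 ± 0.63 (adjusted p = 0.241), Cidec at -2.39 ± 0.71 (adjusted p = 0.161) and Pparg at -0.44 ± 0.40 (adjusted p = 0.82, edgeR). None of the 10 was called there, where 97 of 14484 genes (0.670%) were, and 8 of the 10 were lower at an unadjusted p under 0.05, where 5.47% of all genes were. Since the 10 genes vary together, the counts of 8 of 10 lower genes, here and over all tumors, are not independent observations.

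The median of Adipoq was 5.49 CPM in libraries 41 to 60 (range 0.276 to 60.9) and 1.91 CPM in libraries 61 to 80 (range 0.0786 to 83.5), so that the ranges overlapped widely. Within groups, the mean log2 CPM of Adipoq was higher in libraries 41 to 60 in 6 of 8 groups, the exceptions being the WT and FcD combinations with anti-PD-1. Genes of other tissues differed between the ranges as well. Krt5, a basal keratin, was 4.86 ± 0.88 log2 units higher in libraries 61 to 80 (SE, adjusted p = 0.000742, edgeR), and Csn3, the gene of κ-casein, 2.24 ± 0.37 higher (adjusted p = 0.000144, edgeR). They were the 1 called of 5 tested keratinocyte markers and the 1 called of 1 tested mammary marker, and DESeq2's test called Krt5 and Krt14, and Csn3 and Lalba, higher. At an unadjusted p under 0.05, 3 keratinocyte markers were higher (Krt5, Krt14 at 2.51 ± 0.81 and Trp63) and Sbsn was lower (-0.61 ± 0.22). At an unadjusted p under 0.05, 3 of the 4 tested neutrophil markers (S100a8 at -1.18 ± 0.40, S100a9 and Cxcr2), 3 of the 5 tested muscle markers (Acta1, Myh4 and Tnni2) and 2 of the 6 stromal markers (Pi16 at -1.12 ± 0.36 and Dpt) were lower in libraries 61 to 80, as the adipocyte genes were, with none called by edgeR and S100a8 and Pi16 called by DESeq2's test. Of the 6 endothelial, 6 macrophage, 4 leukocyte and 5 red cell markers 0 had such a p, and none was called by edgeR or DESeq2. The part of these cells in the adipocyte values was not tested. What the number ranges stand for beyond their library numbers and the sex-linked transcripts is not given in the labels, and its part in the treatment comparisons was not tested beyond the values within each range.

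**Figure D4:**
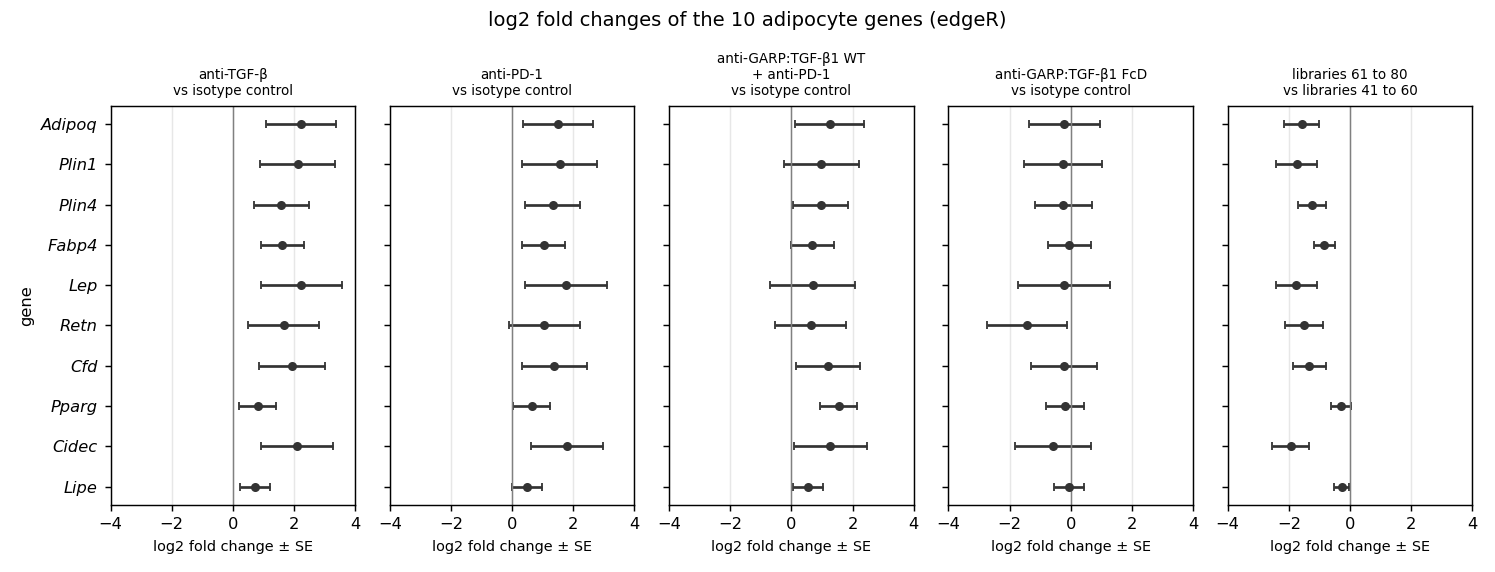
log2 fold changes (horizontal axes) of the 10 genes (vertical axis) from edgeR for 4 comparisons with isotype control and for libraries 61 to 80 against 41 to 60, where points are estimates and bars ± 1 SE. All 10 estimates lie above 0 for anti-TGF-β, anti-PD-1 and the WT combination and below 0 for FcD, and in the last panel the estimates run from -1.94 (Cidec) to -0.27 (Lipe). The directions against isotype control are descriptions, since its values entered the choice of genes.

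Further genes of fat and lipid metabolism were taken from a list of 40, of which 39 were found in the table and 36 passed the filter. None of the 36 was called by edgeR in any comparison or between the number ranges. At an unadjusted p under 0.05, 10 were lower and 3 higher in libraries 61 to 80, where 1037 (7.03%) and 808 of all 14760 genes were. DESeq2's test called 7 of them lower there, among 533 genes in all (Car3, Ces1d, G0s2, Gpd1, Lpl, Pck1 and Ucp1). It also called Cd36 and Plin2 higher and Agpat2 lower in the WT combination against WT, among 619 genes in all. In the FcD combination, whose values chose the adipocyte genes, so that nothing is read from these counts, it called 10 against FcD, among 199 genes, and Dgat2 and Slc2a4 against isotype control, among 14 genes. Lpl was at -1.27 ± 0.45 log2 units in edgeR's fit and Car3 at -1.88 ± 0.63. Their likeness to Adipoq over the 40 tumors, given as a description (Spearman's rho of log2 CPM, with tumors sharing treatment and number range), was 0.80 or more for 11 of 36 and 0.50 or more for 24, where the median over all 14759 genes was -0.01 and the 95th percentile 0.50. In all, 72 genes reached 0.80, among them 7 of the other 9 adipocyte genes.

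The 10 genes outside the set most like Adipoq were Car3 (rho 0.97), Ces1d (0.96), Pck1 (0.95), Gpd1 (0.95), Adrb3 (0.94), Wfdc21 (0.93), Slc7a10 (0.93), Apoc1 (0.93), Hp (0.93) and Slc36a2 (0.92). The list already held the first 5, which encode a carbonic anhydrase, a carboxylesterase, the phosphoenolpyruvate carboxykinase of glyceroneogenesis, glycerol-3-phosphate dehydrogenase and the β3-adrenergic receptor. Car3 ran from 0.906 to 438 CPM with a median of 17.0 CPM, and Pck1 from 0 to 72.9 CPM, both highest in library 71. Hp, the gene of haptoglobin, ran from 2.83 to 480 CPM and was highest in library 48. These genes were picked by their rho over the same 40 tumors, and 2 of them were among the first 10 within libraries 41 to 60 and 3 within libraries 61 to 80.

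Among the listed genes of fatty acid synthesis, 4 did not follow this order and 2 did more closely. Fasn, fatty acid synthase, had a rho of 0.04 with Adipoq and read 165 to 845 CPM, Acly, which makes cytosolic acetyl-CoA, 0.01 (173 to 379 CPM), Acaca, acetyl-CoA carboxylase, 0.09 (64.6 to 186 CPM) and Elovl6, an elongase, -0.22 (14.1 to 58.3 CPM). By contrast Thrsp, a lipogenic regulator, had 0.89 (0.138 to 109 CPM) and Scd1, a desaturase, 0.62 (384 to 2631 CPM). All 6 were highest in library 71. The adiponectin receptor genes Adipor1 and Adipor2 had a rho of -0.28 and -0.01 and read at least 188 and 114 CPM in every tumor. Of the lipid uptake genes, Lpl, lipoprotein lipase, had 0.75 and Cd36 0.62, the latter highest in library 77, as were Plin2 (0.47) and Cebpa (0.57), the gene of C/EBPα.

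**Figure D5:**
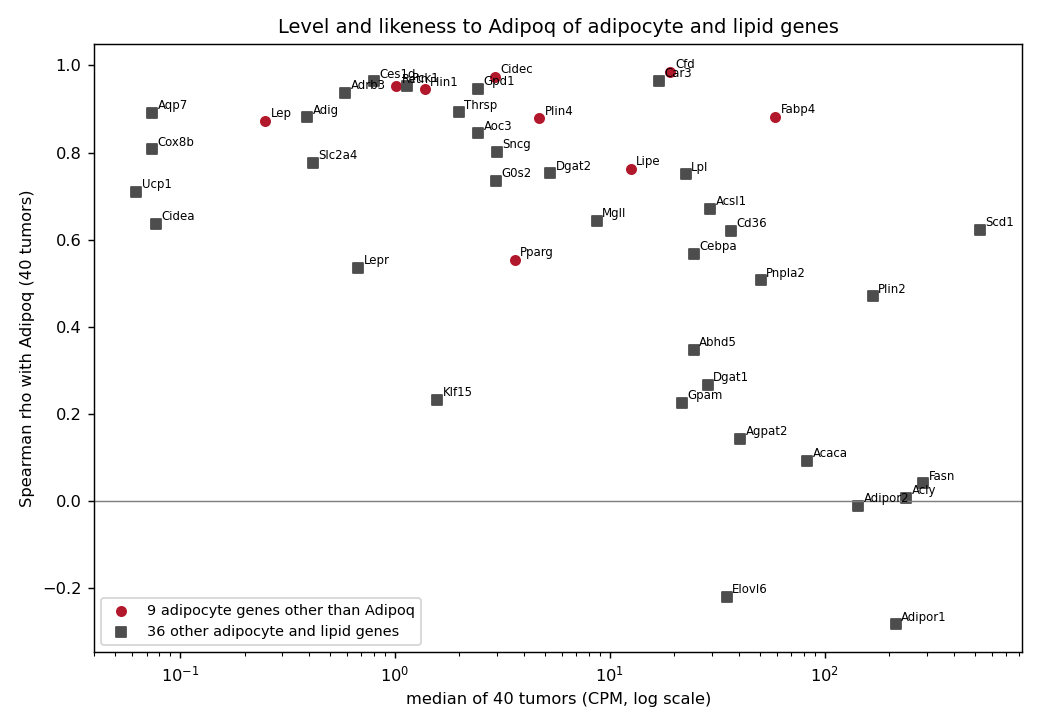
Spearman's rho with Adipoq over the 40 tumors (vertical axis) against the gene's median level (horizontal axis, CPM, log scale) for the 9 other adipocyte genes (circles) and 36 further adipocyte and lipid genes (squares). Cfd, Car3 and Cidec lie near the top, and abundant genes such as Fasn, Acly and Adipor1 lie near or under 0.

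Brown adipocyte markers were low in most tumors. Ucp1, the uncoupling protein of brown fat, read at most 5.85 CPM (library 60) with a median of 0.0626 CPM, and the 4 markers summed to a median of 0.328 CPM. That sum was 11.3, 10.9 and 5.04 CPM in libraries 71, 60 and 44 of the FcD combination and 5.54 CPM in library 48, with a rho of 0.78 with Adipoq. Genes of the connective tissue that surrounds fat and vessels split, since Pi16 (rho 0.90 with Adipoq, up to 38.2 CPM in library 44) and Dpt (0.85, up to 47.9 CPM in library 71) followed Adipoq, Dpp4 (0.69), Col15a1 (0.40) and Pdgfra (0.35) less so, and Cd34, the most abundant of the 6 (377 to 919 CPM), ran the other way (-0.57). The sum of the 6 genes had a rho of -0.36. The neutrophil markers S100a8, S100a9 and Cxcr2 had a rho of 0.53, 0.52 and 0.62 and were highest in library 48. Csf3r, the most abundant tested neutrophil marker (median 22.5 CPM), had 0.39 and was highest in library 77. The muscle markers Acta1 and Myh4 had -0.14 and -0.28 and were highest in library 52, and the macrophage markers had 0.21 to 0.37.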

How the data were processed

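RNA of 40 CT26 tumors was sequenced from stranded mRNA libraries. Per the labels and the methods of the study, the authors aligned paired reads to GRCm38 with STAR 2.5.3a, processed them with SAMtools 1.6 and counted them per gene with HTSeq 0.9.1. The deposited values are raw counts, not normalized. The annotation release and strand setting are not given in the sources used here. All 40 sample columns entered the fits.

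Counts were filtered with filterByExpr, scaled with TMM and tested with the robust quasi-likelihood test of edgeR 4.0.16 (R 4.3.3, limma 3.58.1) in 1 model of 40 tumors, 2-sided, with p-values adjusted over all 14760 genes. SEs are the log2 fold change divided by the root of F. CPM use TMM-scaled sums of the genes that passed the filter as library sizes. Alternatives were DESeq2 1.42.0, its size factors, no filter, only the compared groups, the library number range as a covariate or stratum, and each tumor left out. A fit of the number ranges in 30 tumors was added after the data were seen. The edgeR fit and the ranking by correlation were checked on simulated data. Levels per kilobase use the longest principal coding transcript of GENCODE M21. Correlations used 100000 permutations, 2-sided.

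The genes named are the 10 members, the 40 listed lipid genes, the marker lists and the 10 genes with the highest rho to Adipoq. Members and lists were chosen with earlier results of these data known. Counting intervals cover counting error only. Each tumor came from its own mouse.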

Additional observations from a re-analysis of the deposited data

Results flagged for a closer look

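Within groups of 5, Dixon's test at the 95% level marked 11 of 80 sets of log2 CPM (10 genes in 8 groups) as holding a tumor far from the others, where chance marks about 1 in 20. In the anti-PD-1 group library 47 stood high for Plin1 (log2 CPM 4.32), Plin4 (5.42), Fabp4 (8.60), Lep (2.07), Retn (3.68) and Lipe (5.32). Lipe there read 39.7 CPM against 9.70 to 10.8 CPM in the other 4 tumors. In the anti-TGF-β group library 48 stood high for Plin1 (4.81), Plin4 (5.71), Fabp4 (9.27) and Lipe (5.71). In the anti-TGF-β plus anti-PD-1 group library 53 stood high for Pparg (3.44), at 10.7 CPM against 3.29 to 4.09 CPM. Since the 10 genes vary together, these marks are not independent. The tumors came from different treatments, and Adipoq itself, at 40.4 CPM in library 47 and 60.9 CPM in library 48, was not marked.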

How the results depend on the processing

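Of 353 alternative counts of the 10 genes called, 345 stayed at 0 as reported, among them the fit of the number ranges in 30 tumors, which was chosen after seeing the data. DESeq2's Wald test gave 2 for the FcD combination against FcD, 1 for the WT combination against WT and 5 for the library number ranges, where it called 199, 619 and 533 genes in all. The FcD combination's values chose the genes, so nothing is read from its counts. The fit of only the compared groups gave 1 for the FcD combination against FcD (476 genes in all), and the fit within libraries 61 to 80 gave 1 for the WT combination against WT (2078 genes). Leaving out each tumor gave 0 to 3, 0 to 1 and 0 to 7 in these 3 comparisons, the highest without FcD combination replicate 2 (library 50), WT combination replicate 2 (library 55) and library 71, where 719, 1707 and 298 genes were called in all. The causes were not tested.

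Some estimates changed sign. Adipoq with FcD alone was 0.12 with the number range as a covariate and 1.51 within libraries 61 to 80. Adipoq and Pparg in the WT combination against isotype control were -0.14 and -0.13 within libraries 41 to 60, and the WT interaction of Adipoq was 0.068 within libraries 61 to 80. Adipoq in the WT combination was -0.56 against WT within libraries 41 to 60, and against anti-PD-1 it was 0.71 with the covariate and 2.56 within libraries 61 to 80. With each tumor left out, Adipoq ran from -0.52 to 0.84 (FcD), -1.40 to 2.55 (anti-PD-1), 0.19 to 2.17 (WT), 0.15 to 3.27 (anti-TGF-β), 0.073 to 2.06 (anti-TGF-β plus anti-PD-1), 0.93 to 2.30 (WT combination), -2.42 to 1.51 (WT interaction) and -3.76 to 0.19 (anti-TGF-β interaction), and Fabp4 with anti-TGF-β from -0.024 to 1.89. Adipoq ran from -0.19 to 1.07 (WT combination against WT), -0.56 to 2.64 (WT combination against anti-PD-1), -1.43 to 2.41 (anti-TGF-β combination against anti-PD-1) and -2.15 to 0.86 (the same against anti-TGF-β). The highest Adipoq value against isotype control was in each of the single-agent and combination arms the one without isotype control library 46. Of the 10 genes most like Adipoq, 8 were among the first 10 by Pearson's r, 2 within libraries 41 to 60 and 3 within libraries 61 to 80. No paired analysis was possible because the titles number all 40 libraries differently, so no number is shared between groups. Lep and Retn are limited by depth, with 10 and 2 tumors at 0 counts.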
